A study of Mus musculus with 4 samples.

Results

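The BCL2 family decides whether a damaged or starved cell dies through its mitochondria, and 10 of its genes are described here for the chromatin they hold with KAP1, the corepressor encoded by Trim28. The 10 were chosen by symbol from the 21900 protein-coding genes of the NCBI RefSeq gene table for GRCm38 (mm10), after earlier results of the same data were known. All 10 were found. KAP1 chromatin immunoprecipitation with sequencing (ChIP-seq) was done on regulatory T cells of C57BL/6 mouse spleen that had been sorted and expanded for 2 weeks in culture. There were 2 samples precipitated with an Active Motif antibody against KAP1 and 2 inputs without antibody, and the labels name no mutation or drug. Each KAP1 sample has 1 deposited list of summits, the bases of highest enrichment within called peaks, with 8862 summits in replicate 1 and 79515 in replicate 2. The inputs were not analysed here. No label ties either replicate to its own animals or culture, and differences between them could be technical. The read depth behind the lists is unknown. Summit lists hold no expression values, so the cell type could not be checked against its markers.

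BCL2 family proteins meet at the outer mitochondrial membrane. Pro-survival members (Bcl2, Bcl2l1, which encodes BCL-XL, and Mcl1) hold the effectors Bax and Bak1 in check, and the effectors otherwise form pores that release cytochrome c. BH3-only members (Bcl2l11, which encodes BIM, Bid, Bad, Bbc3, which encodes PUMA, and Pmaip1, which encodes NOXA) sense stress and tip the balance towards death. In mouse regulatory T cells, MCL-1 is needed for survival and BIM limits their number.

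The starts of 5 of these genes are shown, because the results turn on where summits lay relative to them. The sequences are from RefSeq (GRCm38.p6), are the 250 bases before an annotated transcript start, and run from 5′ to 3′ on the gene's own strand. RefSeq windows were found for 9 of the 10 genes, 15 in all. Bcl2l1 and Bak1 had a paired summit within 150 bp of the start, Bax had a summit of 1 replicate just upstream, and Bcl2 and Mcl1 had no summit within 1 kb of the start. The windows are chr1:106714291-106714540 (minus strand) for Bcl2, chr2:152830718-152830967 (minus) for Bcl2l1, chr3:95658471-95658720 (plus) for Mcl1, chr7:45466899-45467148 (minus) for Bax and chr17:27028628-27028877 (minus) for Bak1. Capitals mark matches, on either strand, to common promoter motifs. The GC box, bound by SP1 and its relatives, was searched as GGGCGG. The box bound by the trimeric factor NF-Y was searched as CCAAT. The E-box, bound by basic helix-loop-helix factors such as MYC, was searched as CACGTG. The TATA box, bound by the TATA-binding protein, was searched as TATAAA. The core of the cyclic AMP response element, bound by CREB, was searched as TGACGT.
Bcl2: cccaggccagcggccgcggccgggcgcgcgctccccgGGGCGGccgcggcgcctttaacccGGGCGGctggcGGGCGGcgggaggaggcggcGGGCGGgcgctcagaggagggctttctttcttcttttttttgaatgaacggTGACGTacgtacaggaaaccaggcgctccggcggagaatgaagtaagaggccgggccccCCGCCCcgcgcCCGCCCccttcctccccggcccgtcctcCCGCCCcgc
Bcl2l1: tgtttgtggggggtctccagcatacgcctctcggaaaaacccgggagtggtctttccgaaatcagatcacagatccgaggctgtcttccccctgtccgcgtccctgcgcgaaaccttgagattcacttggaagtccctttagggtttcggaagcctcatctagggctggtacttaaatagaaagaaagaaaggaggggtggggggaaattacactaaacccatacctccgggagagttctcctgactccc
Mcl1: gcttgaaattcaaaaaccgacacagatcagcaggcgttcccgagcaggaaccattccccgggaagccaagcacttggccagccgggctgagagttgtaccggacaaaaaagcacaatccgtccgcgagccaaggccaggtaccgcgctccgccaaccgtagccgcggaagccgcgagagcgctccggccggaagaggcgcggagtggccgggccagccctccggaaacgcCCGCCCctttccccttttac
Bax: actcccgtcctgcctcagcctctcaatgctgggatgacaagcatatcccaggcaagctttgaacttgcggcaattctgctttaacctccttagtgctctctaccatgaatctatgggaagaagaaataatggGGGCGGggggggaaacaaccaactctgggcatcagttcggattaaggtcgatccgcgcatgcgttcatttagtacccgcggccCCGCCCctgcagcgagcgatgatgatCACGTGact
Bak1: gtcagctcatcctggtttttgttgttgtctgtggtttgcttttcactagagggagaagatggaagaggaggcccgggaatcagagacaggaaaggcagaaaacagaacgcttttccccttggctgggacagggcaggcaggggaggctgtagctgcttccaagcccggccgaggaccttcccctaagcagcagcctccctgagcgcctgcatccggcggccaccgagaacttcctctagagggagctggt
The Bcl2 window held 7 GC boxes and 1 TGACGT, and 74.8% of its bases were G or C, with 36 CpG dinucleotides. The Bcl2l1 and Bak1 windows, the ones beside paired summits, held none of the 5 motifs, with 11 and 8 CpGs. The other Bcl2l1 windows, not shown, also held none, and their starts lay more than 1 kb from any paired summit. Mcl1 had 1 GC box and 26 CpGs. Bax had 2 GC boxes, 1 E-box and 14 CpGs. Over all 32851 windows of this length in the RefSeq table, the median was 6 CpGs and 52.4% G or C. A GC box was found in 32.7% of them, CCAAT in 33.8%, the E-box in 6.02%, the TATA box in 12.4% and TGACGT in 6.47%. Matches to different motifs were counted separately where they overlapped. These are matches of letters, and the base sequence under the summits themselves was not read.

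The summits common to both replicates lay mostly with the pro-survival genes. A summit was called paired when a replicate 1 summit had a replicate 2 summit within 200 bp, and positions below are those of replicate 1. In the genes and within 20 kb of them, the 3 pro-survival genes held 13 paired summits and the 7 pro-apoptotic genes held 3. The searched lengths were close, 377.4 kb for the pro-survival genes and 381.4 kb for the pro-apoptotic genes, which gives 3.44 and 0.787 paired summits per 100 kb. Over the windows of all coding genes the density was 0.609 per 100 kb. That value pools genes of all lengths and was not matched for span. The median span was 75.1 kb for pro-survival, 9.94 kb for pro-apoptotic and 17.1 kb for all coding genes. Replicate 1 alone had 22 summits in the pro-survival windows and 8 in the pro-apoptotic windows, or 5.829 and 2.097 per 100 kb. Over all coding genes the replicate 1 density was 0.6998 per 100 kb. The full replicate 2 list had 29 and 30, or 7.684 and 7.865 per 100 kb, against 4.205 over all coding genes. In each list taken alone, both groups therefore lay above the pooled density of all coding genes, which was not matched for span. Among the 8862 highest scores of replicate 2, as many as replicate 1 has summits, 6 lay in pro-survival and 2 in pro-apoptotic windows. No density over all coding genes is given for that shortened list. These counts are descriptions of 2 libraries, given with no test, since the genes were chosen with results known.

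The higher count at pro-survival genes was mostly in gene bodies, which held 9 of their paired summits and 1 of the pro-apoptotic genes. The pro-survival genes were also longer, with spans of 257.4 kb in total against 101.4 kb. Outside bodies, pro-survival genes had 4, all in flanks, and pro-apoptotic genes 1 at an end and 1 in a flank. Of the 4, only the one upstream of Mcl1 had a member as its nearest coding gene. The others lay nearest to Kdsr or Adamtsl4, and the pro-apoptotic flank summit to Ccdc9. Where the member had to be the nearest coding gene, 10 pro-survival and 2 pro-apoptotic paired summits were left. Pro-survival gene bodies held 3.58 paired summits per 100 kb and pro-apoptotic bodies 1.14 (the body is the gene without 1 kb at each end), against 0.341 over all coding genes. Outside bodies, over ends and flanks of the same length for every gene, the values were 3.17 per 100 kb for pro-survival and 0.68 for pro-apoptotic genes, against 0.901 over all coding genes. The pro-apoptotic value was above that of all genes in bodies and below it outside them. It rests on 1 body summit, 1 end summit and 1 flank summit, so no more can be read from it. Without Bcl2, the longest of the genes, Bcl2l1 and Mcl1 together held 6 paired summits, or 3.72 per 100 kb of window.

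**Figure D1:**
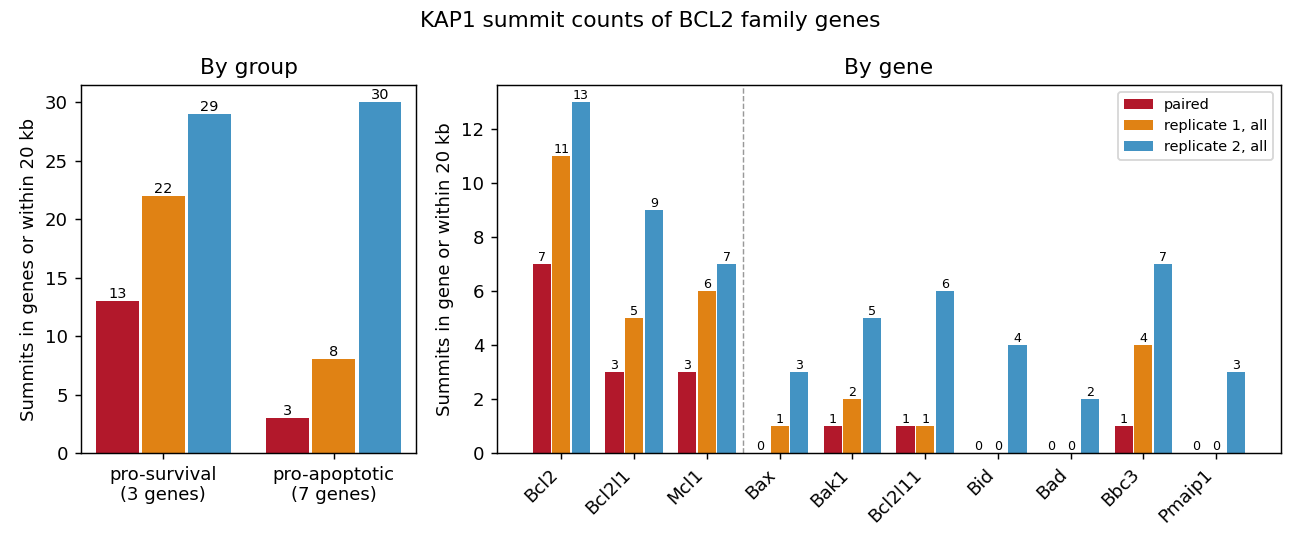
KAP1 summits in each gene or within 20 kb of it, by group (left) and by gene (right, pro-survival genes left of the dashed line); bars are counts of paired summits, all replicate 1 summits and all replicate 2 summits. Paired summits number 13 in pro-survival and 3 in pro-apoptotic genes, while the full replicate 2 list gives 29 and 30.

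By gene, 6 of the 10 had a paired summit in the gene or within 20 kb, against 32.7% of all coding genes. They were Bcl2, Bcl2l1, Mcl1, Bak1, Bcl2l11 and Bbc3. At an end (within 1 kb of the lowest or highest base of a gene) 1 of 10 had one, Bak1, against 8.56% of all coding genes. In the body 3 of 10 had one, Bcl2, Bcl2l1 and Bcl2l11, against 12.4% of the 19301 coding genes that have a body. The end share is near that of all genes, so no more can be read from it. Taken alone, replicate 1 had an end summit at 2 of the 10 genes (Bax and Bak1), against 9.42% of all coding genes, and replicate 2 at 2 (Bak1 and Bbc3), against 22.2%. In the body, replicate 1 had one in 4 of the 10, against 13.3%, and replicate 2 in 6, against 54.4%. Using all replicate 1 summits, 7 of 10 genes had one in the gene or within 20 kb (34.3% of all coding genes), and using all replicate 2 summits, 10 of 10 did (80.9%).

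**Figure D2:**
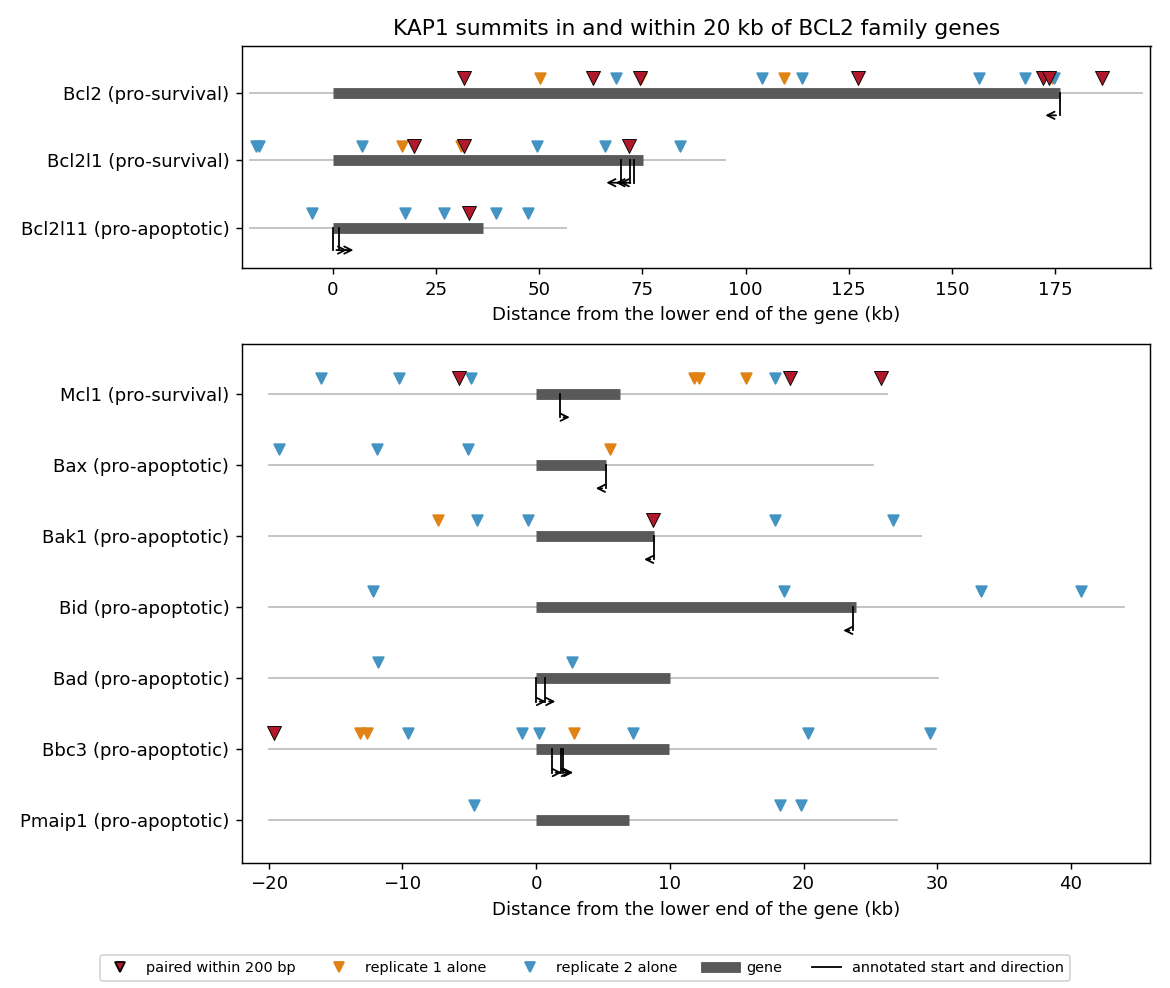
Summits of both replicates along each gene and 20 kb on either side, by distance from the gene's lower end in kb (long genes above, short genes below); thick bars are genes, arrows are annotated starts, and triangles are summits coloured by pairing. Paired summits run through the Bcl2 body, flank Mcl1 without touching it, and sit at a start in Bcl2l1 and Bak1.

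Bcl2, the founding pro-survival gene, spans 176115 bp of chromosome 1 (106538176 to 106714290) and is transcribed from its higher end. It held 6 paired summits in its body and 1 outside. The strongest by replicate 1 lay at 106601111, deep in the gene at 113179 bp downstream of the start. It scored 25.3 in replicate 1 and 23.2 in replicate 2, where a score is the peak caller's p or q as the authors deposited it, on a −log10 scale. In replicate 1, 92.4% of the list scored lower, and in replicate 2, 96.6%, so both samples ranked it high.

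The other strong Bcl2 site lay near the start. A paired summit at 106711654, 2636 bp downstream of the start, scored 16.1 in replicate 1 and 25.6 in replicate 2. A weaker pair lay at 106710283, 4007 bp downstream, with scores of 5.95 and 9.55. Closer still, replicate 1 had a summit 1796 bp downstream of the start (score 4.17) and replicate 2 one 1296 bp downstream (9.39). These lay 500 bp apart and were not paired. Neither replicate had a summit within 1 kb of either end of Bcl2.

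The remaining paired Bcl2 sites were weak in at least 1 list. The summits at 106569914, 106612663 and 106665334 scored 3.21, 5.10 and 4.61 in replicate 1. Their replicate 2 partners scored 3.35, 4.34 and 3.82, and fewer than 3% of the replicate 2 list scored lower than any of them. The site outside the gene lay at 106724581, 10291 bp upstream of the Bcl2 start and inside the neighbouring gene Kdsr, with scores of 6.16 and 8.31. In addition Bcl2 held 4 replicate 1 body summits and 6 replicate 2 body summits without a partner.

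A count as high as that of Bcl2 was rare among genes. At least 7 paired summits in the gene or within 20 kb were found in 28 of 21900 coding genes (0.128%). Among the 1707 coding genes that span 100 to 250 kb, 27.7% had at least 1 paired body summit and 8 genes (0.469%), Bcl2 among them, had at least 6. The coding genes most like Bcl2 in paired count, taken as those with the same total and the nearest span among the 15 others with 7, were Zbtb46 (122.3 kb), Ccdc88c (117.8 kb) and Ninj2 (107.2 kb). Zbtb46 and Ccdc88c each had 1 of their paired summits at an end and 4 in the body, while Ninj2, like Bcl2, had 6 in the body and 1 in the flank.

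Bcl2l1, whose main product BCL-XL keeps the effectors inactive, spans 75072 bp of chromosome 2 (152758732 to 152833803). Its 3 paired summits all lay inside the gene. The one at 152830577 lay 140 bp downstream of an annotated start, the start whose window is printed above, and 3226 bp from the end of the gene as the table draws it. It scored 9.60 in replicate 1, where 66.7% of the list scored lower. Its partner 7 bp away scored 40.0 in replicate 2, where 98.9% scored lower, and had the highest score of the replicate 2 summits near the 10 genes.

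The other paired Bcl2l1 sites lay far into the gene. At 152778494 the scores were 10.7 in replicate 1 and 16.9 in replicate 2, and at 152790521 they were 13.2 and 13.4. The first lay 19762 bp and the second 31789 bp from the lower end, which is the downstream end. Replicate 1 alone had 2 further body summits, with scores of 4.17 and 5.10. Replicate 2 alone had 3, with scores between 6.72 and 12.1, and 3 in the flanks, nearest to Id1 or Tpx2. Of coding genes spanning 50 to 100 kb, 23.8% had a paired body summit and 2.23% had 3 or more.

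Mcl1, which encodes a short-lived pro-survival protein, is a short gene of 6236 bp on chromosome 3 (95656944 to 95663179). No summit of either replicate lay in the gene or at its ends. It was flanked by 3 paired summits. The one at 95651168 lay 7553 bp upstream of the annotated start, with Mcl1 as the nearest coding gene, and scored 8.34 in replicate 1 and 9.76 in replicate 2. In replicate 2 alone a stronger summit (17.7) lay 920 bp closer to the gene. Replicate 1 alone had 3 summits on the downstream side, with scores of 3.21, 4.17 and 8.34. Replicate 2 alone had 3 others, at 17852 bp (5.10) and 12018 bp (12.2) upstream of the start and on the downstream side (12.4).

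The pairs on the downstream side of Mcl1 lay by its neighbour Adamtsl4. The summit at 95675930 was on the same base in both lists, 271 bp outside Adamtsl4, with scores of 14.4 and 11.0. The summit at 95682768 lay inside Adamtsl4, 19589 bp from Mcl1 and so just within the search distance, with scores of 7.64 and 15.4. The next paired summit lay 28042 bp from Mcl1. Of coding genes spanning 5 to 12 kb, 34.9% had at least 1 paired summit in the gene or within 20 kb and 4.10% had 3 or more.

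The effectors carried low-scoring summits at their starts. Bak1, a pore-forming effector of 8816 bp on chromosome 17 (27019812 to 27028627), had the only paired end summit of the 10 genes. It lay at 27028574, 53 bp downstream of the start in replicate 1 and 51 bp in replicate 2. The scores were 2.31 in replicate 1 and 4.06 in replicate 2, and only 1.22% and 1.97% of the lists scored lower. The gene table also places this base inside Ggnbp1, whose span covers Bak1 here, so the site cannot be given to 1 gene. Replicate 2 alone had a summit 571 bp outside the lower end (4.87) and 3 in the flanks, the strongest of them 15.1, and replicate 1 alone had 1 in the flank (2.31).

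Bax, the other effector, spans 5209 bp of chromosome 7 (45461695 to 45466903). Replicate 1 had 1 summit 312 bp upstream of its start, again with a score of 2.31. The nearest replicate 2 summit lay 10589 bp away. The 3 replicate 2 summits around Bax scored 5.31, 7.89 and 8.31, and each was nearest to or inside Gys1. The nearest paired summit lay 27364 bp from Bax.

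Among the BH3-only genes, Bcl2l11 and Bbc3 had 1 paired summit each, and Bid, Bad and Pmaip1 had none. Bcl2l11, on chromosome 2 (128126038 to 128162547), had its pair in the body at 128158943, 3604 bp before its downstream end. It scored 4.61 in replicate 1 and 5.60 in replicate 2. In replicate 2 alone a stronger body summit (13.5) lay 25475 bp downstream of the nearer start, and no summit of either list lay within 5 kb of its starts. Of coding genes spanning 25 to 50 kb, 15.0% had a paired body summit.

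Bbc3, a target gene of p53, lies on chromosome 7 (16308398 to 16318334). Its pair lay at 16288784, 19614 bp outside the gene and just within the search distance, with scores of 4.17 and 3.98. The summits lay 110 bp apart, which is the widest gap of the 16 pairs, and Ccdc9 was the nearest coding gene. Near its starts the replicates had different summits. Replicate 1 had one 773 bp downstream of the nearest start (5.10) and replicate 2 one 985 bp upstream (8.62), which is 200 bp inside the lower end of the gene. Replicate 1 had 2 further unpaired summits in the flank (3.69 and 5.10).

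Bid, cut by caspases into an active fragment, had no replicate 1 summit, and replicate 2 had 4, of which 1 (6.50) lay in the gene. Bad, whose activity is set by phosphorylation, likewise had no replicate 1 summit. Replicate 2 had 1 in the Bad body (10.7) and 1 by Kcnk4 (11.8). Pmaip1 had no summit in the gene or at its ends in either list. Replicate 2 placed 3 in its flanks, with scores of 4.65, 7.05 and 24.2, and the strongest lay 12835 bp outside the gene. The nearest paired summits lay 70335 bp from Bid, 67618 bp from Bad and 946095 bp from Pmaip1.

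The paired summits of the groups also differed in score. In replicate 1, the 13 pro-survival pairs had a median score of 8.34 (range 3.21 to 25.3), and the 3 pro-apoptotic pairs had 4.17 (2.31 to 4.61). In replicate 2 the partners had a median of 11.0 (3.35 to 40.0) for pro-survival genes and 4.06 (3.98 to 5.60) for pro-apoptotic genes. The list medians were 7.25 in replicate 1 and 8.39 in replicate 2. All 3 pro-apoptotic pairs lay below both medians. The ranges of the groups overlapped, as 2 Bcl2 pairs in replicate 1 and 3 in replicate 2 scored no higher than the highest pro-apoptotic pair. With both lists kept to scores at or above their medians, 8 pro-survival pairs remained and no pro-apoptotic pair. The value over all coding genes under that filter is not given.

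**Figure D3:**
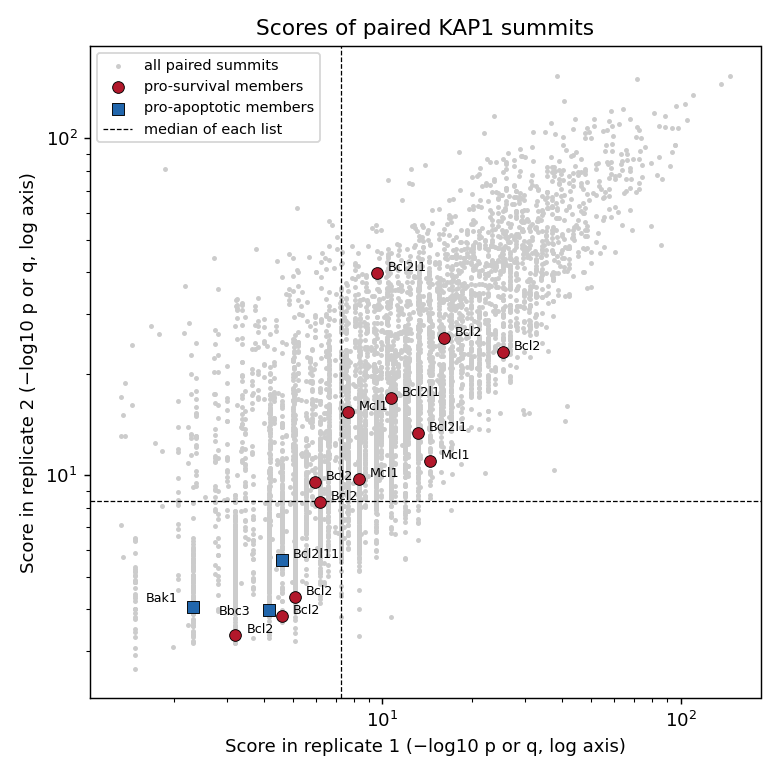
Score in replicate 1 (x) against score in replicate 2 (y) of every paired summit, both as −log10 of p or q on log axes, with the 16 pairs of the BCL2 family genes marked by group and dashed lines at the list medians. The 3 pro-apoptotic pairs lie below both medians, and the Bcl2l1 start summit stands above the others in replicate 2 with 40.0.

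Across all coding genes, the mean number of paired summits in the searched window was higher in each longer class of span. It was 0.308 for genes of 1 to 2.5 kb, 0.423 for 2.5 to 5 kb, 0.535 for 5 to 10 kb and 0.778 for 160 to 320 kb. Mcl1, in the class of 5 to 10 kb, had 3, and the 95th percentile of that class was 2. Bcl2, in the class of 160 to 320 kb, had 7, against a 95th percentile of 3. Bcl2l1 stood at the 95th percentile of its class, genes of 40 to 80 kb, which was 3. The 7 pro-apoptotic genes had 0 or 1, in classes whose means were 0.535 to 0.582.

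**Figure D4:**
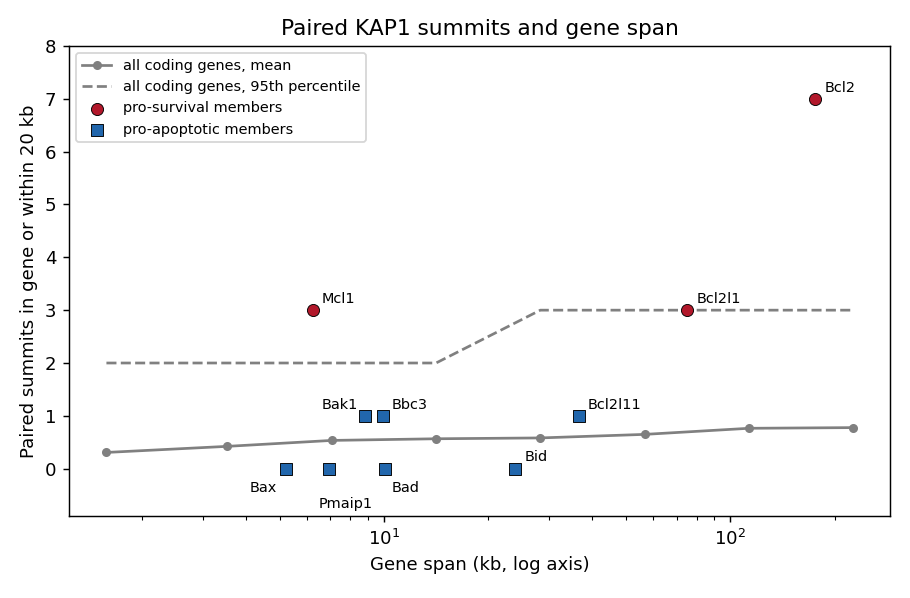
Paired summits in the gene or within 20 kb (y) against gene span in kb (x, log axis) for the 10 genes, with the mean (solid line) and 95th percentile (dashed line) of all coding genes in classes of span. Bcl2 with 7 and Mcl1 with 3 lie above the dashed line, Bcl2l1 lies on it, and the pro-apoptotic genes have 0 or 1.

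Of 15 further family genes, 0 had a paired summit at an end, against 8.56% of all coding genes. A paired body summit was found in 3 of them, against 12.4%, and 5 had a paired summit in the gene or within 20 kb, against 32.7%. The median paired count was 0, as for all coding genes. The 15 were not divided by role, so the contrast among the 10 genes is not shown for them and was not tested there. Bcl2l2, Bcl2l10, Bcl2a1a, Bcl2a1b and Bcl2a1d had 0 paired summits in the gene or within 20 kb. Bok and Bmf also had 0, while Hrk and Bik had 1 each. The body sites belonged to Hrk, a BH3-only gene (scores 8.34 in replicate 1 and 13.0 in replicate 2), Bnip3, a mitophagy receptor (5.56 and 7.22), and Bcl2l15 (1.48 and 4.0003). Bcl2a1a, Bcl2a1b and Bcl2a1d are near-identical copies, so reads could have been split or dropped among them. Their lack of summits in both lists is therefore uncertain.

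Genes that act before and after the family in apoptosis were also listed. Of 19 such genes, 4 had a paired summit at an end (Birc3, Birc5, Htra2 and Trp53), against 8.56% of all coding genes. In the body 6 had one, against 12.4%. In the gene or within 20 kb 14 had one, against 32.7%, with a median of 1 per gene, against a median of 0 over all coding genes. Of the inhibitor of apoptosis genes in the list, Birc2, Birc3 and Birc5 had one in the body, while Xiap had none in the gene or within 20 kb and no replicate 1 summit there. Birc3 had a pair 99 bp downstream of an annotated start, which scored 13.2 in replicate 1 and 9.84 in replicate 2. Birc5, which encodes survivin, had one 1742 bp downstream of its start (17.9 and 25.8) and a weaker one 619 bp upstream (5.10 and 5.48). Casp8, the initiator caspase of death receptors, had a body pair with scores of 23.9 and 17.7. Apaf1, the scaffold of the apoptosome, had one 5823 bp downstream of its start (15.7 and 19.9). Trp53, which encodes p53, had one 903 bp upstream of its start (7.25 and 6.77). The list is given beside the family as a description, and neither list was tested against other genes.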

How the data were processed

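The authors deposited 1 list of MACS2 summits per KAP1 sample, so replicates were not pooled. Per the submitters' processing notes the tools were MACS2 2.2.1, Bowtie2 2.2.9 and Picard 2.1.1 and the build was mm10. Per the labels' protocols, fragments came from sonicated nuclear lysates. The sources used here do not give the calling threshold, the control or any filters. The deposited scores are −log10 p-values or q-values, and which of these is not stated, so they only rank, filter or describe summits of their own list. The lists record no read depth.

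Summits were placed (Python 3.11.15, pandas 2.3.3, numpy 2.4.6) against RefSeq genes of GRCm38.p6, 1-based. An end was 1 kb on either side of the lowest or highest base, a body the rest of the gene, and a flank reached to 20 kb. Starts came from RefSeq promoter windows. Pairing used 200 bp. The steps were tested on simulated data. Members, gene lists, rules and alternatives were chosen with earlier results of these data known, and the span classes after seeing them, so counts stand beside those of all coding genes with no test. All 10 members are named, as are list genes with a paired summit at an end or in the body (up to 8 per list by replicate 1 score). Foxo3, Birc2 and Htra2 fall under this rule and are given only in counts or by name. Alternatives varied the pairing distance, the score minimum, the list length, the windows, the replicate used and whether the member had to be the nearest coding gene.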

Additional observations from a re-analysis of the deposited data

How the results depend on the processing

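Of 45 values under 9 alternatives, 28 stayed within 1.5 times the reported count and 17 moved. With scores at or above the list medians, the genes with a paired end summit numbered 0, the genes with one in the gene or within 20 kb 3, and the paired summits 8 in pro-survival and 0 in pro-apoptotic genes. With replicate 2 reduced to its 8862 highest scores these were 0, 3, 5 and 0. Values over all coding genes are not given at these settings, so the counts cannot be set against those of other genes. With ends of 2500 bp and flanks of 50 kb, pro-survival genes held 15 paired summits and pro-apoptotic genes 9. The wider flanks lengthened the search more for the 7 pro-apoptotic than for the 3 pro-survival genes. These raw counts are therefore not for like lengths, and no value over all coding genes is given for them. Leaving out either replicate and counting all summits of the other gave 2 genes at an end in both cases, 4 to 6 genes in the body, and 7 to 10 genes in the gene or within 20 kb. It gave 22 to 29 summits in pro-survival genes and 8 to 30 in pro-apoptotic genes, the higher values being from replicate 2. The excess at pro-survival over pro-apoptotic genes was therefore seen in replicate 1 and not in the counts of the full replicate 2 list. It was also seen in the paired set, which is drawn from replicate 1 and so is not a separate observation. Why the lists differ was not tested. No paired analysis was possible because the inputs, which share replicate numbers with the KAP1 samples, were not analysed here. Depth is unknown, so a missing summit is not shown to be missing binding.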

Other observations

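Some of the strongest replicate 2 summits around these genes had no replicate 1 partner. Among the 8862 highest replicate 2 scores, which reach down to 14.9, 5 paired summits lay by pro-survival genes (2 at Bcl2, 2 at Bcl2l1 and 1 by Mcl1). Another 3 were unpaired, at 6633 bp upstream of the Mcl1 start (17.7), 13261 bp downstream of the Bak1 start (15.1) and in the flank of Pmaip1 (24.2).

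Replicate 1 summits around the 10 genes were paired less often than in the whole list. Of 30 in the genes or within 20 kb, 16 were paired (53.3%), against 87.1% of all 8862. Below the list's median score, 8 of 21 were paired by these genes (38.1%) and 75.2% in the whole list. At or above it, 8 of 9 were paired (88.9%) and 97.3% in the whole list. The pairs that were found lay close, with a median distance of 3 bp and 13 of 16 within 10 bp.

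Low replicate 1 scores took few distinct values. The score 5.10 was carried by 1188 summits, 13.4% of the list, and by 5 of the 30 around these genes, among them 2 Bcl2 body summits at 106612663 and 106612947. The score 2.31, that of both effector start summits, was carried by 191 summits.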
